A study of Mus musculus with 8 samples.

Results

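The genes followed here belong to the ATF4 stress response and to serine synthesis, in control and Dax1KO mouse embryonic stem cells (ESCs). They were taken by symbol from the pathway, with no threshold on measured values, but with earlier results of these data known. They are Atf4, Ddit3, Chac1, Trib3, Sesn2, Asns, Psat1, Phgdh, Shmt2 and Slc7a11, 10 of the 52550 genes listed. Each symbol matched 1 gene, and all 10 were expressed highly enough to be tested among 20749 genes. Messenger RNA was sequenced from control ESCs and from ESCs without Dax1 (Nr0b1), an orphan nuclear receptor of the pluripotency network, each in 2 culture media with 2 libraries per group, 8 libraries in all. The 2i/LIF medium was N2B27 with 1 μM PD0325901, a MEK inhibitor, 3 μM CHIR99021, a GSK3 inhibitor, and 10 ng/ml LIF, the cytokine that sustains self-renewal. The LIF/serum medium was DMEM with 15% FBS, 2 mM GlutaMAX, 1% non-essential amino acids, 0.1 mM β-mercaptoethanol and 10 ng/ml LIF. All samples are labelled passage 3, and both genotypes were grown on gelatin.

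The Dax1KO cells came from 1 colony, made with a lentivirus carrying Cas9 and a guide at the Dax1 start codon, selected with zeocin and picked in 2i/LIF, so genotype and clone cannot be told apart. Nothing in the sources used here says that the 2 libraries of a group came from separate cultures, so the P values measure the spread between these libraries, which may be technical. In 2i/LIF Dax1 itself had 456 and 300 counts in control cells against 0 and 0 in Dax1KO cells, and in LIF/serum 5095 and 4689 against 14 and 6. Totals lay between 35911384 and 37286251 counts per library. The 8 pluripotent cell markers summed to 161800 to 211700 normalized counts in every library, with none at 0. The sum hides members that moved apart. In 2i/LIF the means in control and Dax1KO cells were 25280 and 18720 for Pou5f1 and 22010 and 38090 for Tfcp2l1. In LIF/serum they were 40630 and 35300 for Pou5f1 and 7234 and 12520 for Klf4. For Dax1KO against control 4 of the 8 estimates were above 0 in 2i/LIF and 6 of the 8 in LIF/serum.

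ATF4 is a bZIP transcription factor whose protein is made when the initiation factor eIF2α is phosphorylated, which happens when amino acids run short, when proteins misfold in the endoplasmic reticulum, when double-stranded RNA is present or when heme is lacking. Since this control acts on translation, the Atf4 transcript can be steady while ATF4 protein changes, and RNA counts do not report the protein. ATF4 binds with C/EBP partners to a composite element and raises genes for amino acid synthesis, amino acid uptake and, when stress lasts, growth arrest and cell death. In the serine pathway Phgdh and Psat1 make serine from a glycolytic intermediate, and Shmt2 passes its carbon on to folate in mitochondria.

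The promoters of the 10 genes were read for the core of that composite element, TGATGNAA on either strand, in RefSeq windows of 250 bases before to 50 bases after the start site in GRCm38.p6. The core was present in 4 of the 10 genes, Asns, Chac1, Trib3 and Slc7a11, against 4.51% of the 27025 genes in the RefSeq table and 2.88% of the 13071 of them that were tested. The stretches are shown because they are the members with matching letters, with the matches in capitals, 5′ to 3′ on the strand of the gene. A match is a description of letters and not evidence of binding, and no match says only that these letters are not in the window.
Asns, chr6:7693214-7693243, minus strand: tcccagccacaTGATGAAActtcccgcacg
Chac1, chr2:119351009-119351108, plus strand: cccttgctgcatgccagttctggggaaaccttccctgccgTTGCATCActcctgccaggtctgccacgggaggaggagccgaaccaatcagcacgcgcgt
Trib3, chr2:152344028-152344057, minus strand: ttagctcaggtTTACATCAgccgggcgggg
Slc7a11, chr3:50443620-50443719, minus strand: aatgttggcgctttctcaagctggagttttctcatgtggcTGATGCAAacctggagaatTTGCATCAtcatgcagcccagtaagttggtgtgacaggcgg
The match in Asns lay at bases -23 to -16 from the start site and that in Chac1 at -193 to -186. Slc7a11 had 2 matches, at -66 to -59 and -47 to -40, and the match in Trib3 lay after the start site, at bases 15 to 22. Among the 4 genes with the core, Asns was the one called in any comparison below, while Ddit3, Psat1, Phgdh, Shmt2 and Sesn2, without these letters in the window, were each called in at least 1.

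Levels of different genes can be compared only per length. In control cells in 2i/LIF the mean normalized count per kilobase of annotated exon was highest for Asns, at 9531, followed by Atf4 at 4438, Phgdh at 2390, Psat1 at 2005, Shmt2 at 1804 and Sesn2 at 1191. The stress-induced members came last, with Trib3 at 458, Chac1 at 431 and Ddit3 at 230, and the cystine transporter gene Slc7a11 had 12.8. In this order the libraries of Trib3 and Chac1 overlapped, and no other neighbours did. Across the 8 libraries the highest value exceeded the lowest 4.94-fold for Ddit3 and 3.23-fold for Asns, and 1.48-fold and 1.49-fold for Phgdh and Atf4.

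**Figure D1:**
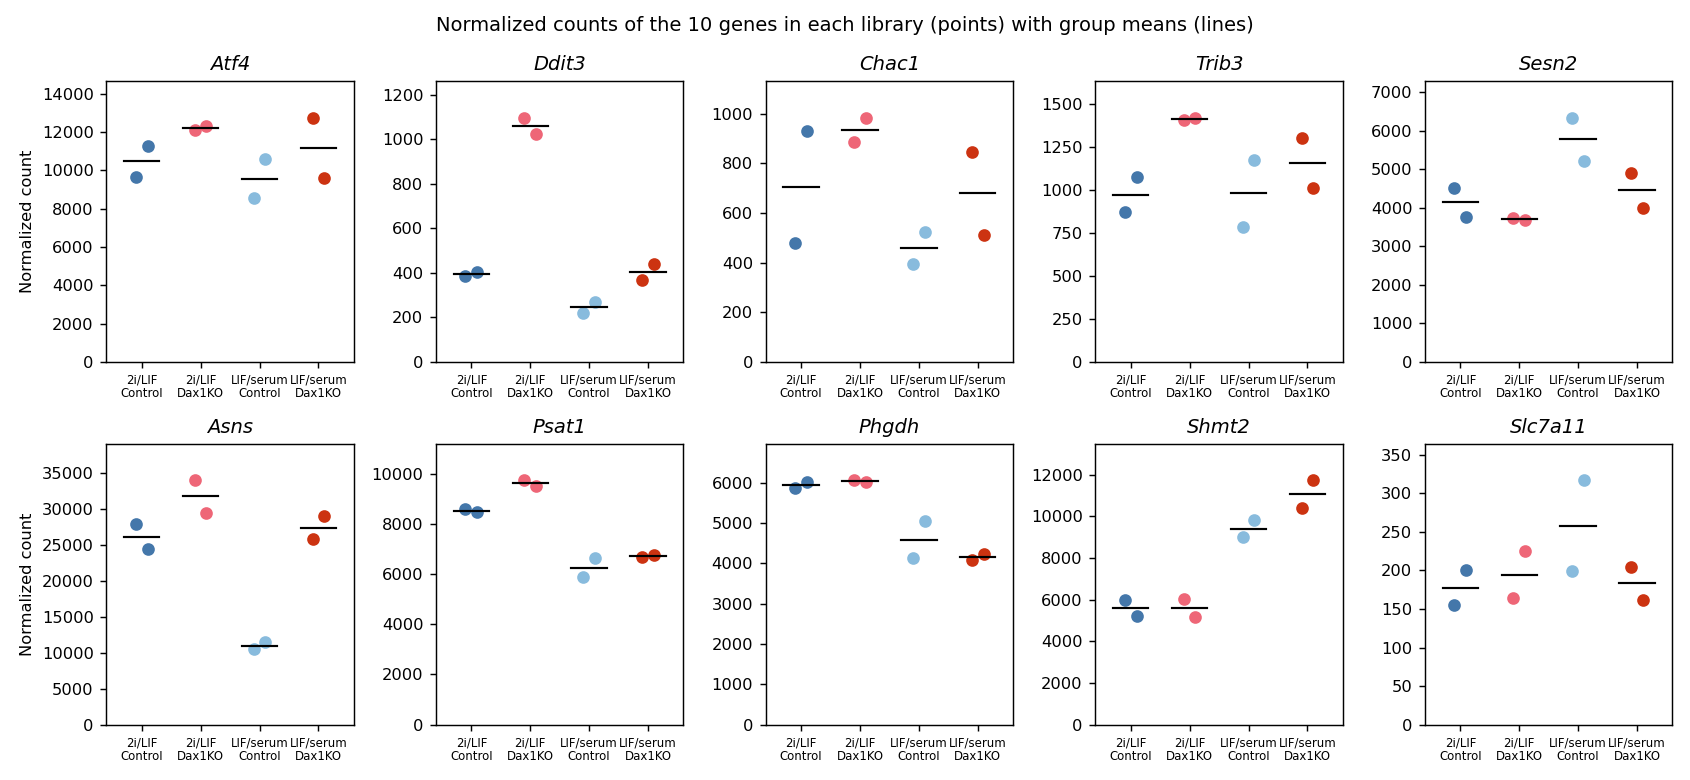
Normalized counts (y axis, from 0, a separate scale per gene) of the 10 genes in the 8 libraries, with 1 point per library and a line at the mean of each group of 2. Ddit3 stood highest in the 2i/LIF Dax1KO libraries, Asns lowest in the LIF/serum control libraries and Shmt2 higher in LIF/serum than in 2i/LIF.

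The first comparison asked how the loss of Dax1 moved these genes in 2i/LIF, the ground state medium. One of the 10 genes passed the threshold, Ddit3, which rose 2.70-fold, and the serine pathway genes had log2 fold changes between -0.01 and 0.18 that did not pass. The threshold was an adjusted P of at most 0.05, from edgeR's quasi-likelihood test over all genes, and a fold change of at least 1.2. Over all genes tested, 1.51% rose and 1.65% fell, against 1 of 10 and 0 of 10 of these genes. At an unadjusted P under 0.05, 2 of the 10 were higher and 0 lower, and DESeq2 called 1 higher and 0 lower. The median log2 fold change of the 10 was 0.20 against -0.01 over all genes.

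Ddit3 (10:127290774-127296288, plus strand, GRCm38) encodes CHOP, the bZIP factor that links lasting stress to cell death. In 2i/LIF its normalized counts were 384 and 402 in control cells and 1097 and 1024 in Dax1KO cells. Both Dax1KO libraries lay far above both control libraries, with no overlap. The log2 fold change was 1.43 (SE 0.17, adjusted P 0.00962). Leaving out any 1 of the 4 libraries in 2i/LIF kept the change between 1.38 and 1.48, but the call was lost each time. Ddit3 shares 68 of its 1713 exonic bases with Mars on the opposite strand and no source used here says that reads were counted by strand. Mars had log2 fold changes of -0.29 (adjusted P 0.22) in 2i/LIF and -0.08 (adjusted P 0.689) in LIF/serum. Between media it had 0.11 (adjusted P 0.458) in control and -0.10 (adjusted P 0.557) in Dax1KO cells, and its part in Ddit3 was not tested.

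Trib3 encodes a pseudokinase that ATF4 and CHOP induce and that restrains both. Its normalized counts in 2i/LIF were 872 and 1074 in control cells and 1408 and 1422 in Dax1KO cells. Both Dax1KO libraries lay above both control libraries, and the log2 fold change of 0.54 (SE 0.22, adjusted P 0.246) did not pass. Chac1, a stress-induced enzyme that breaks down glutathione, had 480 and 930 in control cells and 885 and 984 in Dax1KO cells, and the groups overlapped. Its log2 fold change was 0.41 (SE 0.34, adjusted P 0.619), and the 2 control libraries alone differed 1.94-fold. Atf4 had 9657 and 11270 in control cells and 12090 and 12290 in Dax1KO cells, which did not overlap, with a log2 fold change of 0.22 (SE 0.17, adjusted P 0.569). Sesn2, a sensor of leucine that holds back mTORC1, had 4507 and 3773 in control cells and 3736 and 3674 in Dax1KO cells. The Dax1KO libraries lay just below the control ones, with a log2 fold change of -0.16 (SE 0.15, adjusted P 0.678).

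Asns makes asparagine from aspartate and is among the best known ATF4 targets. Its normalized counts in 2i/LIF were 27800 and 24330 in control cells and 33930 and 29460 in Dax1KO cells. The groups did not overlap, and the log2 fold change of 0.28 (SE 0.13, adjusted P 0.290) did not pass. Asns lies on chromosome 6 (6:7675169-7693254, minus strand), where the 1054 genes tested moved by a median of 0.44 on the log2 scale in Dax1KO cells and 9.87% rose. On the other chromosomes that hold members, the median lay between -0.05 and 0.00. The change of Asns in 2i/LIF thus differed from its chromosome's median by -0.16, and 675 of the 1054 genes had a larger one. The part of the chromosome in the values of Asns was not tested.

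Psat1, the aminotransferase of serine synthesis, had 8594 and 8466 normalized counts in control cells and 9736 and 9529 in Dax1KO cells in 2i/LIF. Both Dax1KO libraries lay a little above both control libraries, with a log2 fold change of 0.18 (SE 0.10, adjusted P 0.438). Phgdh, which takes the first step of the pathway, had 5866 and 6016 against 6059 and 6025, a log2 fold change of 0.02 (SE 0.12, adjusted P 0.958). Phgdh is uncertain in all comparisons, since 84.6% of its transcript matches the pseudogene Gm9252 at an identity of at least 95%, although Gm9252 had at most 3 counts in any library. Shmt2 had 6007 and 5207 against 6025 and 5150, with overlapping libraries and a log2 fold change of -0.01 (SE 0.13, adjusted P 0.999). Slc7a11, the cystine importer that feeds glutathione synthesis, was 178 ± 31.6 in control cells and 195 ± 42.7 in Dax1KO cells (SD, n = 2), with overlapping libraries and a log2 fold change of 0.13 (SE 0.30, adjusted P 0.890). Slc7a11 is uncertain too, since stretches of its transcript match 1957 other genes at this identity, the widest cover being 4.06% of the transcript by Gm3756, which had 737 to 1149 counts per library. In 2i/LIF the libraries of the 2 genotypes did not overlap for 7 of the 10 genes, against 51.8% of all genes tested.

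The second comparison asked the same question in LIF/serum, the conventional medium, to which the Dax1KO cells had been moved from 2i/LIF. Asns rose 2.50-fold and Ddit3 1.65-fold, and the other 8 genes did not pass. Over all genes tested, 8.87% rose and 5.78% fell, against 2 of 10 and 0 of 10. At an unadjusted P under 0.05, 2 were higher and 1 lower, and DESeq2 called 2 higher and 0 lower. The median log2 fold change of the 10 genes was 0.23 against 0.01 over all genes, and the libraries did not overlap for 5 of 10 genes against 57.5% of all genes.

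In LIF/serum Asns had 10490 and 11430 normalized counts in control cells and 25770 and 28920 in Dax1KO cells. The Dax1KO libraries were at the level of the 2i/LIF control libraries, and it was the LIF/serum control libraries that stood low. The log2 fold change was 1.32 (SE 0.13, adjusted P 0.00175), and it passed under all 14 alternatives, at 1.24 to 1.40 with a highest adjusted P of 0.0164. Genes of chromosome 6 had a median of 0.52 here and 28.3% of them rose. The change of Asns exceeded that median by 0.80, and 155 of the 1054 genes had a larger one.

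In LIF/serum Ddit3 had 221 and 269 normalized counts in control cells and 368 and 439 in Dax1KO cells, again with no overlap but at lower levels than in 2i/LIF. The log2 fold change was 0.72 (SE 0.17, adjusted P 0.0308). The call was lost with no filter on low counts, with a fit of these groups alone and without any of 6 libraries. Without the LIF/serum control replicate 1 the change was 0.59 (adjusted P 0.105), and without the Dax1KO replicates 1 and 2 it was 0.84 (adjusted P 0.0574) and 0.59 (adjusted P 0.164). The other losses came from leaving out 2i/LIF control replicate 2 (adjusted P 0.0524) or 2i/LIF Dax1KO replicate 1 (0.0638) or 2 (0.0627), libraries of the other medium that share the fit.

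The remaining stress genes were variable in LIF/serum. Chac1 had 396 and 523 normalized counts in control cells and 847 and 512 in Dax1KO cells, which overlapped, and its log2 fold change was 0.57 (SE 0.34, adjusted P 0.307). Trib3 had 788 and 1174 against 1302 and 1010, and Atf4 had 8553 and 10570 against 12740 and 9598. Both overlapped, with log2 fold changes of 0.24 (SE 0.22, adjusted P 0.511) and 0.22 (SE 0.17, adjusted P 0.404). In Atf4, Trib3 and Chac1 alike, the Dax1KO replicate 1 library was the higher of its pair in LIF/serum. Sesn2 had 6338 and 5205 against 4904 and 4004, with both Dax1KO libraries below both control libraries, and its log2 fold change of -0.37 (SE 0.15, unadjusted P 0.0404, adjusted P 0.143) did not pass. Of these genes Sesn2 alone had an estimate below 0 in LIF/serum.

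Among the serine genes in LIF/serum, Shmt2 had 8990 and 9817 normalized counts in control cells and 10400 and 11730 in Dax1KO cells. These did not overlap, and the log2 fold change was 0.23 (SE 0.13, adjusted P 0.267). Psat1 had 5866 and 6648 against 6699 and 6755, a log2 fold change of 0.10 (SE 0.10, adjusted P 0.538). Phgdh had 4122 and 5044 against 4086 and 4236, with overlapping libraries and -0.14 (SE 0.12, adjusted P 0.474) on the log2 scale. None of the 3 serine pathway genes passed in either medium. Slc7a11 had 199 and 317 against 205 and 162, and its log2 fold change was -0.49 (SE 0.30, adjusted P 0.302), with overlap.

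**Figure D2:**
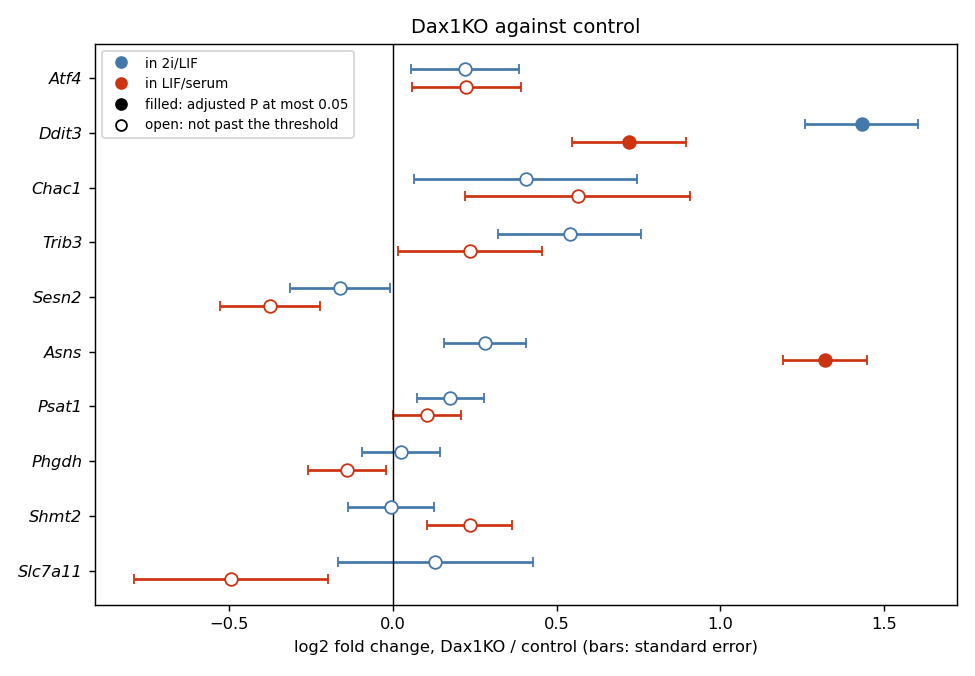
Log2 fold change of Dax1KO against control (x axis, bars are standard errors of the edgeR fit) for the 10 genes in 2i/LIF and LIF/serum, with filled points past the threshold. Ddit3 passed in both media, at 1.43 and 0.72, and Asns in LIF/serum, at 1.32.

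Whether the genotype effect differed between media was tested directly as the change in LIF/serum minus the change in 2i/LIF. Of the 10 genes, 1 had a larger change in LIF/serum and 0 a larger one in 2i/LIF, against 2.05% and 0.824% of all genes tested. At an unadjusted P under 0.05 these were 1 and 1, and with DESeq2 1 and 0. For Asns the difference was 1.04 on the log2 scale (SE 0.18, adjusted P 0.0299). This call was lost without any 1 of the 8 libraries, with differences of 0.94 to 1.146 and adjusted P values of 0.0526 to 0.128. The chromosome 6 median of this difference was 0.05, so that of Asns exceeded it by 0.98. For Ddit3 the difference was -0.71 (SE 0.24, unadjusted P 0.0187, adjusted P 0.162), so the larger fold change in 2i/LIF was not shown to differ from that in LIF/serum. The other 8 genes had differences between -0.62, for Slc7a11, and 0.24, for Shmt2, with adjusted P values from 0.478 to 1.00.

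The 2 media were then compared within each genotype, a comparison in which serum, basal medium, supplements and inhibitors change together and cannot be told apart. In control cells 4 of the 10 genes were higher in 2i/LIF, Asns, Ddit3, Psat1 and Phgdh, and 2 were higher in LIF/serum, Shmt2 and Sesn2. Over all genes tested 20.3% were higher and 16.5% lower in 2i/LIF. The 3 serine pathway genes among the 10 were thus split, with Psat1 and Phgdh higher in 2i/LIF and Shmt2 higher in LIF/serum. In Dax1KO cells 3 genes, Ddit3, Psat1 and Phgdh, were higher in 2i/LIF and 1, Shmt2, was lower, against 15.2% and 13.7% of all genes. These comparisons share their libraries with the genotype comparisons above, so the 2 sets of values are not independent. The libraries of the 2 media did not overlap for 6 of the 10 genes in control and 8 of 10 in Dax1KO cells, against 68.6% and 68.9% of all genes.

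In control cells Asns was 26070 ± 2455 normalized counts (SD, n = 2) in 2i/LIF and 10960 ± 660 in LIF/serum. The log2 fold change was 1.25 (SE 0.13, adjusted P 0.000256), and the call held under all 14 alternatives. In Dax1KO cells Asns was 31690 ± 3162 in 2i/LIF and 27340 ± 2225 in LIF/serum. Here the log2 fold change was 0.21 (SE 0.13, adjusted P 0.246). The low level of Asns was thus found in 1 of the 4 groups, the control cells in LIF/serum.

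Shmt2 in control cells was 5607 ± 566 in 2i/LIF and 9403 ± 585 in LIF/serum, and in Dax1KO cells 5588 ± 619 and 11070 ± 936 (SD, n = 2). The log2 fold change of 2i/LIF against LIF/serum was -0.75 (SE 0.13, adjusted P 0.00333) in control and -0.99 (SE 0.13, adjusted P 0.00125) in Dax1KO cells. Both calls held under all 14 alternatives. Shmt2 shares 32 of its 3109 exonic bases with Ndufa4l2 on the opposite strand, whose counts lay between 22 and 2354, against 5206 to 12028 for Shmt2. The log2 fold changes of Ndufa4l2 had the same sign as those of Shmt2, at -1.88 (adjusted P 0.249) and -3.16 (adjusted P 0.0858) between media in control and Dax1KO cells and 1.90 (adjusted P 0.299) for Dax1KO in LIF/serum, and its part in Shmt2 was not tested. In control cells Psat1 was 8530 ± 90.7 in 2i/LIF and 6257 ± 553 in LIF/serum, and in Dax1KO cells 9632 ± 147 in 2i/LIF, with 6699 and 6755 in the LIF/serum libraries. All 4 libraries in 2i/LIF were above the 4 in LIF/serum, with log2 fold changes of 0.45 (SE 0.10, adjusted P 0.0111) and 0.52 (SE 0.10, adjusted P 0.00759). These calls were lost without either of the 2i/LIF libraries of the same genotype, at 0.41 and 0.44 (adjusted P 0.068 and 0.0513) in control and 0.50 and 0.53 (0.0555 and 0.0508) in Dax1KO cells. The call in control cells was also lost with a separate fit of the groups compared (0.43, adjusted P 0.0572).

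In control cells Phgdh was 5941 ± 107 in 2i/LIF and 4583 ± 652 in LIF/serum, and in Dax1KO cells 6042 ± 23.9 and 4161 ± 106 (SD, n = 2). Its log2 fold changes were 0.37 (SE 0.12, adjusted P 0.0406) and 0.54 (SE 0.12, adjusted P 0.0123). The first was close to the threshold and held under 3 of 14 alternatives. It was lost without any library but LIF/serum control replicate 2, at 0.24 to 0.40 with adjusted P values of 0.0619 to 0.198, and also with RLE factors (adjusted P 0.0531), a minimum of 10 counts per library (0.0563), genes kept without a low-count filter (0.0569) and separate fits (0.124). The call in Dax1KO cells was lost without any 1 of the 4 Dax1KO libraries, at 0.51 to 0.56 with adjusted P values of 0.055 to 0.0736. In control cells Ddit3 was 393 ± 12.8 in 2i/LIF and 245 ± 34.1 in LIF/serum, and in Dax1KO cells 1061 ± 51.5 and 404 ± 49.8. The media did not overlap within a genotype, but the 2i/LIF control libraries lay in the range of the LIF/serum Dax1KO libraries. The log2 fold changes were 0.68 (SE 0.17, adjusted P 0.0166), lost without 2i/LIF control replicate 2 (0.61, adjusted P 0.0903) or LIF/serum control replicate 1 (0.55, adjusted P 0.0732) or with a separate fit (0.67, adjusted P 0.063), and 1.39 (SE 0.17, adjusted P 0.000848), which held under all 14 alternatives.

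In control cells Sesn2 was 4140 ± 519 in 2i/LIF and 5771 ± 801 in LIF/serum, a log2 fold change of -0.48 (SE 0.15, adjusted P 0.0408). This call was lost with no filter on low counts (adjusted P 0.0868), with separate fits (0.0607) and without 5 of the 8 libraries, the 4 in 2i/LIF and LIF/serum control replicate 1, at -0.33 to -0.61 with adjusted P values of 0.0541 to 0.185. In Dax1KO cells it was 3705 ± 43.7 and 4454 ± 636, a log2 fold change of -0.27 (SE 0.15, adjusted P 0.238). Atf4 itself differed little between media, with log2 fold changes of 0.13 in both genotypes (SE 0.17, adjusted P 0.577 and 0.619). Chac1 had 0.62 (SE 0.34, adjusted P 0.195) in control and 0.46 (SE 0.34, adjusted P 0.360) in Dax1KO cells, and with 1 library left out the former ran from 0.0208, without 2i/LIF control replicate 2, to 1.023. Trib3 had -0.01 (SE 0.22, adjusted P 0.974) and 0.29 (SE 0.22, adjusted P 0.366), and Slc7a11 had -0.54 (SE 0.30, adjusted P 0.192) and 0.09 (SE 0.30, adjusted P 0.862).

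**Figure D3:**
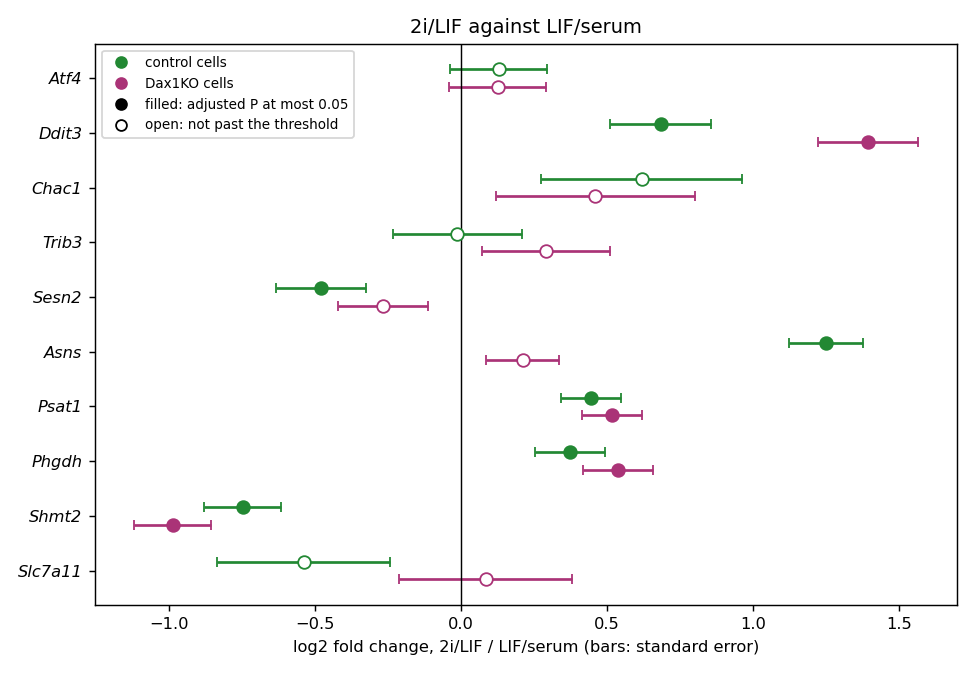
Log2 fold change of 2i/LIF against LIF/serum (x axis, bars are standard errors of the edgeR fit) for the 10 genes in control and Dax1KO cells, with filled points past the threshold. Psat1 and Phgdh were above 0 and Shmt2 below 0 in both genotypes, while Asns was at 1.25 in control and 0.21 in Dax1KO cells.

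The rest of the response was read from 9 further lists of 100 genes around the pathway, so that with the 10 genes 110 were examined. The lists were chosen with earlier results of these data known, so the shares below describe these genes and are not a test. Of these 110 genes 8 lie on chromosome 6. In 2i/LIF 6 of the 8 rose in Dax1KO cells and 1 fell, where 9.87% of all chromosome 6 genes rose. Of the 102 on other chromosomes 2 rose and 2 fell, near the 1.51% and 1.65% over all genes. In LIF/serum 7 of the 8 rose, where 28.3% of all chromosome 6 genes did. Elsewhere 17 of the 102 rose and 6 fell, against 8.87% and 5.78% of all genes, so the share that fell was near that of all genes. The part of chromosome 6 in these values was not tested.

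**Figure D4:**
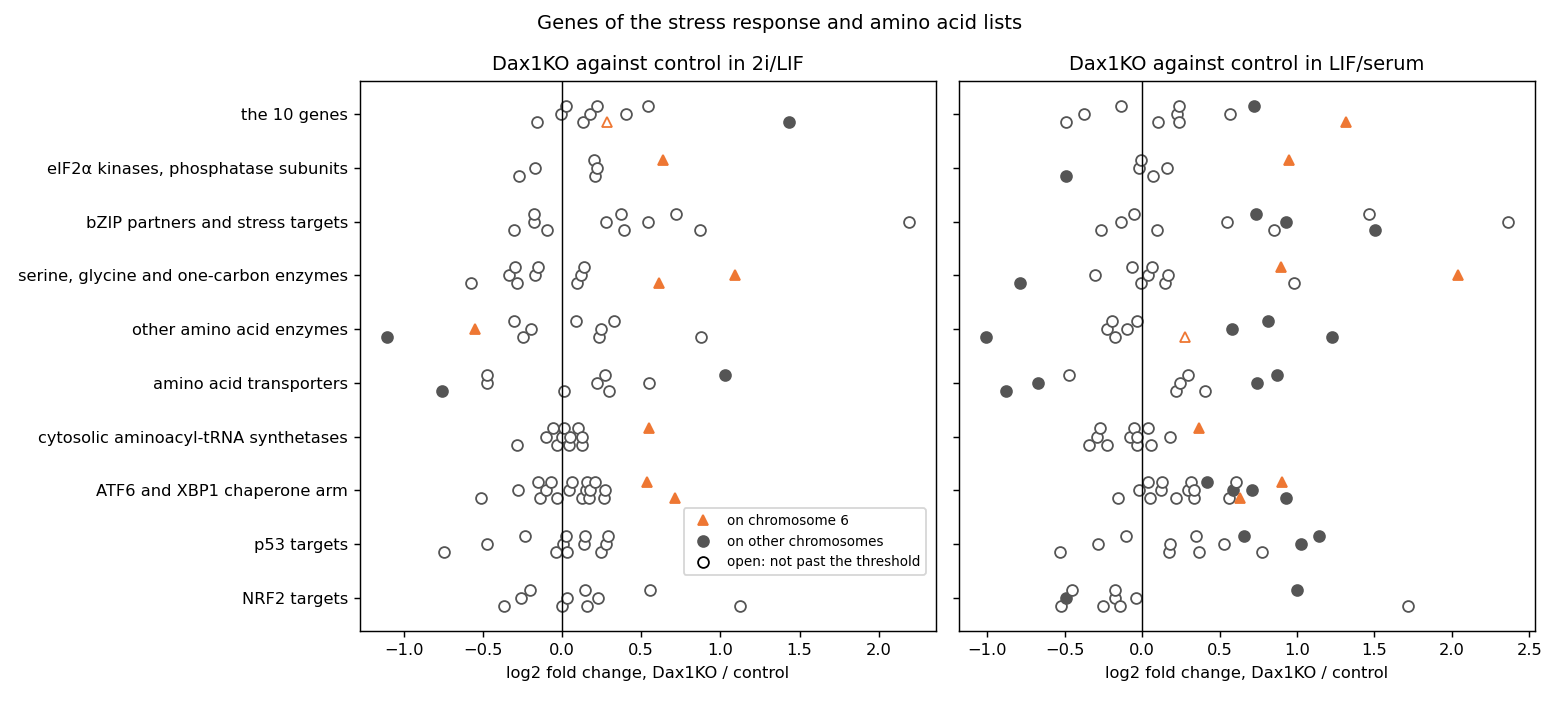
Log2 fold change of Dax1KO against control (x axis) for each of the 110 genes in 10 lists, in 2i/LIF on the left and LIF/serum on the right, with triangles for genes on chromosome 6 and filled symbols past the threshold. In 2i/LIF 6 of the 8 filled symbols to the right of 0 are triangles, and in LIF/serum 17 of 24 are circles.

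Upstream of ATF4, the list of eIF2α kinases and phosphatase subunits held 6 genes. Eif2ak3, which encodes PERK, the kinase of the endoplasmic reticulum, rose in Dax1KO cells in both media and lies on chromosome 6. It was 1067 ± 47.0 and 1659 ± 15.4 normalized counts (SD, n = 2) in control and Dax1KO cells in 2i/LIF, and 1242 ± 103 and 2392 ± 64.1 in LIF/serum. The log2 fold changes were 0.64 (SE 0.12, adjusted P 0.0355) and 0.95 (SE 0.12, adjusted P 0.00415), against chromosome medians of 0.44 and 0.52. Eif2ak1, the heme-regulated kinase HRI, fell by 0.49 in LIF/serum (adjusted P 0.038) and had -0.27 in 2i/LIF (adjusted P 0.322). Neither Eif2ak4, the amino acid sensor GCN2, nor Eif2ak2, the RNA-activated kinase PKR, passed, with log2 fold changes of -0.17 and 0.22 in 2i/LIF and 0.07 and -0.02 in LIF/serum. The phosphatase subunits that reverse the signal, Ppp1r15a and Ppp1r15b, had 0.20 and 0.21 in 2i/LIF and -0.01 and 0.16 in LIF/serum, and did not pass. Between media, Eif2ak2 and Eif2ak4 were higher and Ppp1r15a lower in 2i/LIF, at 0.72, 0.65 and -0.90 in control cells and 0.96, 0.41 and -0.69 in Dax1KO cells. Eif2ak1 was lower in 2i/LIF in control cells (-0.46), and Eif2ak3 in Dax1KO cells (-0.53).

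Of 11 bZIP partners and further ATF4-induced genes, edgeR called 0 in 2i/LIF, with 2 higher and 0 lower at an unadjusted P under 0.05 and 1 called by DESeq2, and 3 rose in LIF/serum, where 8.87% of all genes rose. With 1.51% of all genes rising in 2i/LIF, a count of 0 there is near the background. The 3 were Jdp2, a bZIP repressor, at 1.503 (adjusted P 0.00844), Atf3, a stress-induced bZIP factor, at 0.93 (adjusted P 0.0433), and Nupr1, a small stress-induced chromatin protein, at 0.73 (adjusted P 0.033). The median of the list was 0.37 in 2i/LIF and 0.73 in LIF/serum, against -0.01 and 0.01 over all genes. Among the 3, Atf3 in LIF/serum had 151 and 169 against 354 and 253 normalized counts. In control cells Jdp2 (1.99), Nupr1 (1.45) and Atf3 (1.04) were higher in 2i/LIF and Stc2, a secreted glycoprotein, was lower (-1.32). This comparison shares the LIF/serum control libraries with the one above. In Dax1KO cells Nupr1 (1.27) and Atf3 (0.98) were higher and Stc2 (-1.36) lower in 2i/LIF.

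Beside Psat1, Phgdh and Shmt2, 11 further enzymes of serine, glycine and one-carbon metabolism were listed. In 2i/LIF 2 rose and 9 did not pass, with 1.51% of all genes rising. In LIF/serum 2 rose and 1 fell, with 8.87% and 5.78% of all genes doing so. Both that rose are folate enzymes on chromosome 6, Aldh1l1, which oxidises formyl-tetrahydrofolate, and Mthfd2, the mitochondrial dehydrogenase next to Shmt2 in the pathway. In 2i/LIF Aldh1l1 had 1920 and 2266 normalized counts in control cells and 4512 and 4425 in Dax1KO cells, and 298 and 335 against 1272 and 1328 in LIF/serum. Its log2 fold changes were 1.09 (adjusted P 0.00882) and 2.04 (adjusted P 0.000883), the latter far above the chromosome median. Mthfd2 had 6574 and 6113 against 10270 and 9147 in 2i/LIF and 3981 and 4858 against 8329 and 8110 in LIF/serum, log2 fold changes of 0.61 (adjusted P 0.046) and 0.90 (adjusted P 0.00574). Tyms, thymidylate synthase, fell by 0.79 in LIF/serum (adjusted P 0.00913). Psph, the phosphatase that completes serine synthesis, had -0.15 (adjusted P 0.67) and -0.07 (adjusted P 0.793) and did not pass. Between media in control cells, 3 of the 11 were higher and 2 lower in 2i/LIF (20.3% and 16.5% of all genes), led by Aldh1l1 at 2.73 and Tyms at -0.94. In Dax1KO cells 2 were higher and 4 lower (15.2% and 13.7% of all genes), led by Aldh1l1 at 1.78 and Tyms at -0.73.

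In the list of 10 other amino acid enzymes, 2 fell in 2i/LIF, as did 1.65% of all genes. In LIF/serum 3 rose and 1 fell, beside 8.87% and 5.78% of all genes. Glul, glutamine synthetase, fell in both media, by 1.11 (adjusted P 0.0136) and 1.01 (adjusted P 0.00617), from 4573 and 6143 to 2406 and 2563 normalized counts in 2i/LIF and from 14440 and 13200 to 6974 and 6729 in LIF/serum. Bcat1, which transaminates branched-chain amino acids, fell by 0.55 in 2i/LIF (adjusted P 0.0323), the 1 listed gene of chromosome 6 that fell. In LIF/serum Pycr1, a mitochondrial enzyme of proline synthesis, rose by 1.23 (adjusted P 0.00295), Cbs, of the route from homocysteine to cysteine, by 0.82 (adjusted P 0.0242) and Aldh18a1, the first enzyme of proline synthesis, by 0.58 (adjusted P 0.0165). Pycr1 had 1090 and 1105 normalized counts in the LIF/serum control libraries against 2268 to 3046 in the other 6. In control cells 5 of the 10 were higher and 3 lower in 2i/LIF, against 20.3% and 16.5% of all genes, among them Pycr1 (1.44), Gpt2 (0.89) and Glul (-1.37), and in Dax1KO cells 2 were higher, with Gpt2 at 1.25, and 3 lower, with Glul at -1.46, beside 15.2% and 13.7% of all genes.

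Of 9 amino acid transporters beside Slc7a11, 1 rose and 1 fell in 2i/LIF (1.51% and 1.65% of all genes), and 2 rose and 2 fell in LIF/serum (8.87% and 5.78%). Slc1a4, a carrier of serine and alanine, rose by 1.03 in 2i/LIF (adjusted P 0.0226), from 1083 and 1428 to 2431 and 2686 normalized counts. Slc7a3, a carrier of cationic amino acids, fell in both media, by 0.76 (adjusted P 0.0207) and 0.88 (adjusted P 0.00486). In LIF/serum the related carrier Slc7a1 rose by 0.87 (adjusted P 0.0313), a call that held under 5 of 14 alternatives with a range of 0.59 to 1.201, and Slc7a5, the LAT1 carrier of large neutral amino acids, by 0.74 (adjusted P 0.00581), while the glutamine carrier Slc38a1 fell by 0.67 (adjusted P 0.0251). Between media, Slc7a3 (-1.45 and -1.33), Slc38a2 (-1.38 and -1.37) and Slc38a1 (-1.32 and -1.12) were lower in 2i/LIF in control and Dax1KO cells. Slc7a5 was higher in 2i/LIF, at 1.13 and 0.69. In each genotype 3 of the 9 were higher and 3 lower, where 20.3% and 16.5% of all genes were in control and 15.2% and 13.7% in Dax1KO cells. Among 12 cytosolic aminoacyl-tRNA synthetases 1 rose in each medium, Gars on chromosome 6, by 0.55 (adjusted P 0.0323) and 0.37 (adjusted P 0.0442). The medians of chromosome 6 were 0.44 and 0.52, so the LIF/serum change of Gars lay below that of its chromosome. In LIF/serum 1 of 12 is near the 8.87% of all genes that rose. Between media 1 was lower in 2i/LIF in control cells, Lars (-0.44), and 1 higher in Dax1KO cells, Cars (0.45).

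The ATF6 and XBP1 arm raises chaperones and degradation factors of the endoplasmic reticulum and is a neighbour of the ATF4 arm. Of its 19 genes 2 rose in 2i/LIF, against 1.51% of all genes and 9.87% of those on chromosome 6, and both are on chromosome 6, Edem1 (0.71, adjusted P 0.0389) and Pdia4 (0.53, adjusted P 0.0306). In LIF/serum 6 rose, against 8.87% of all genes, with Sdf2l1 at 0.93 (adjusted P 0.0262), Edem1 at 0.90 (adjusted P 0.00747), Sel1l at 0.71 (adjusted P 0.0399) and Pdia4 at 0.63 (adjusted P 0.00702), and the list's median was 0.33. Between media 2 were higher and 3 lower in 2i/LIF in control cells, beside 20.3% and 16.5% of all genes, and 1 higher and 6 lower in Dax1KO cells, where 15.2% and 13.7% of all genes were. Xbp1, the bZIP factor of this arm, was lower in 2i/LIF in both, by log2 fold changes of -1.29 and -1.06.

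Lists of p53 and NRF2 targets were read beside these because Sesn2, Ddit3 or Slc7a11 can respond to those pathways too. Of 12 p53 targets, edgeR called 0 in 2i/LIF, with 0 higher and 2 lower at an unadjusted P under 0.05 and 1 called lower by DESeq2, where 1.51% and 1.65% of all genes rose and fell. In LIF/serum 3 rose, with 8.87% of all genes rising, Cdkn1a, the cell cycle inhibitor p21, by 1.14 (adjusted P 0.00446), Btg2, an antiproliferative factor, by 1.02 (adjusted P 0.00477) and Sesn1, the paralogue of Sesn2, by 0.66 (adjusted P 0.0192). In LIF/serum Sesn1 had 981 and 843 normalized counts in control cells and 1410 and 1467 in Dax1KO cells, while Sesn2 had lower values in the Dax1KO libraries there. Of 10 NRF2 targets edgeR called 0 in 2i/LIF, with 1 higher and 1 lower at an unadjusted P under 0.05 and 0 called by DESeq2. In LIF/serum 1 rose, Me1, malic enzyme, by 1.00 (adjusted P 0.0433), and 1 fell, Hmox1, heme oxygenase, by 0.49 (adjusted P 0.0276), which is near the shares over all genes. The call of Me1 held under 5 of 14 alternatives, with a range of 0.54 to 1.35. Between media 3 p53 targets were higher and 2 lower in 2i/LIF in control cells, with Cdkn1a at 1.51 and Btg2 at 1.17, and 4 NRF2 targets were higher and 2 lower, with Me1 at 1.88 and Nqo1 at 1.52. In Dax1KO cells these were 2 and 2 p53 targets and 5 and 2 NRF2 targets. Over all genes the shares were 20.3% and 16.5% in control and 15.2% and 13.7% in Dax1KO cells.

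Of the calls of list genes that the naming rule covers, 26 in LIF/serum included 10 that held without any 1 of the 8 libraries, those of Aldh1l1, Btg2, Cdkn1a, Edem1, Eif2ak3, Mthfd2, Pdia4, Pycr1, Slc7a3 and Slc7a5. Of the 10 calls in 2i/LIF, 0 did. Between media 22 of 33 calls in control and 14 of 32 in Dax1KO cells did. Atf3 and Gars in LIF/serum held under 3 of 14 alternatives, and Eif2ak1 in LIF/serum and Eif2ak4 between media in Dax1KO cells under 4. Stc2 held under 8 of 14 in either genotype, with log2 fold changes from -1.73 to -0.76 in control and -1.78 to -0.76 in Dax1KO cells.

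Other cell types can add RNA of these genes, and in bulk RNA fewer cells of a type and less RNA per cell cannot be told apart. The 7 endoderm markers summed to 9261 to 12600 normalized counts in the LIF/serum control and 19960 to 23820 in the LIF/serum Dax1KO libraries, with 5 of 7 rising and none at 0, and to 2768 to 2805 and 2088 to 2646 in 2i/LIF, with 1 of 7 rising. The 7 trophectoderm markers summed to 1701 to 2277 in control and 3785 to 3994 in Dax1KO libraries in 2i/LIF, and to 2638 to 2674 and 4188 to 4796 in LIF/serum, with 2 and 3 of 7 rising. Cdx2 was at 0 in the 4 2i/LIF libraries and Elf5 in 1 LIF/serum control library. The 5 ectoderm markers summed to 3115 to 3445 in 2i/LIF, and to 1057 to 1070 in control and 681 to 700.1 in Dax1KO libraries in LIF/serum, with 1 of 5 falling there. The 7 fibroblast markers summed to 1873 to 2363 in control and 1263 to 1348 in Dax1KO libraries in 2i/LIF, and to 458 to 486 and 1434 to 1498 in LIF/serum, with 2 to 4 of them at 0 in each library. That sum was mostly Thy1, a surface protein that other cells carry too, with means of 1957 and 1089 in control and Dax1KO cells in 2i/LIF and 411 and 1269 in LIF/serum. Of the 5 tested, 1 fell in 2i/LIF, Thy1, while the estimates of the other 4 were above 0, with Lum at 18.5 and 48.2 and Postn at 12.5 and 32.2. In LIF/serum 2 of the 5 rose. The trophectoderm sum in 2i/LIF was mostly Krt8, Krt18 and Eomes. Of its members 2 had lower means in Dax1KO cells, Gata3 at 124 and 45.8 and Hand1 at 113 and 70.2, which did not pass. In LIF/serum Cdx2 (20.2 and 11.2) and Gata3 (35.6 and 34.8) had lower means in Dax1KO cells and did not pass. All these counts are to be read beside the 1.51% and 1.65% of all genes that rose and fell in 2i/LIF and the 8.87% and 5.78% in LIF/serum. The endoderm and trophectoderm sums and Thy1 were higher in Dax1KO cells beside Asns and Ddit3 in LIF/serum, as were Krt8 and Krt18 beside Ddit3 in 2i/LIF. Their part in those changes was not tested. Between media all 7 endoderm markers were lower in 2i/LIF in both genotypes, against 16.5% and 13.7% of all genes in control and Dax1KO cells. Of the 5 ectoderm markers 2 were higher there in control and 3 in Dax1KO cells, against 20.3% and 15.2% of all genes. The part of these markers in the media comparisons was not tested.

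The mean pattern of the 10 genes over the 8 libraries, each gene centred on the log2 scale, was highest in the 2i/LIF Dax1KO libraries, at 0.26 and 0.26, and lowest in LIF/serum control replicate 1, at -0.36, followed by 2i/LIF control replicate 1 at -0.11 and LIF/serum control replicate 2 at -0.09. The 10 genes did not share it closely. Their root mean square distance from it ran from 0.0852 log2 units for Atf4 to 0.606 for Ddit3, with Shmt2 at 0.566. The 5 other genes nearest to the mean pattern were Tmem250-ps (0.0507), Ppp1r16a (0.0512), Gm6382 (0.069), Atp6v0b (0.074) and Gm12264 (0.0751), over 8 libraries.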

How the data were processed

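The authors deposited raw counts per gene and library, whole numbers without normalization. The submitters' processing notes name HISAT2 2.0.4, DESeq2 and the build mm10. The counting tool, its strand setting and the annotation are not given in the sources used here. Of 52550 gene IDs, 52403 were found in GENCODE M21 (GRCm38), which gave symbols and coordinates.

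Groups and replicate numbers came from the sample titles. The tests used edgeR 4.0.16 (R 4.3.3). There, filterByExpr left 20749 genes, TMM factors were 0.960 to 1.04, and a quasi-likelihood model with 4 group means was fitted to the 8 libraries. Benjamini-Hochberg adjustment ran over all genes tested. A call needed an adjusted P no higher than 0.05 with at least a 1.2-fold change, and the difference between media needed the adjusted P alone. Normalized counts are counts divided by the TMM-scaled library size and multiplied by its mean. The biological coefficient of variation was 20.9%. In data simulated from these libraries with 200 genes changed 2-fold, 33% were recovered in 2i/LIF (20153 genes tested) and 31.5% in LIF/serum (20174). A 2-fold change was thus often missed in the simulation. All other genes were simulated with no genotype effect in that medium, so the shares hold for that setting and not for these data. Replicates differed by more than sampling noise and none was a copy of another. Totals of 35911384 to 37286251 counts limit counting error only. Copies were sought with blastn 2.17.0 at 95% identity.

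The members and lists were chosen with earlier results of these data known. All 10 members are named, and of every other list up to 4 called genes a comparison, those with the largest absolute log2 fold change, and all 6 of the eIF2α list. Some list genes that this rule names are not reported here by name. Psph and the genes named for a marker at 0 were added after their values were seen. Alternatives were DESeq2 1.42.0, RLE factors, no filter, at least 10 counts in every library, separate fits, the replicate number as a block, the chromosome's median subtracted and each library left out.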

Additional observations from a re-analysis of the deposited data

Results flagged for a closer look

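The effect of the loss of Dax1 differed between the media for 7 of the 110 genes of the pathway lists, all with a difference above 0, as for 2.05% of all genes, by edgeR's test of the difference itself (change in LIF/serum minus change in 2i/LIF). The difference was 1.04 on the log2 scale for Asns (adjusted P 0.0299), with changes of 1.32 in LIF/serum and 0.28 in 2i/LIF. It was 1.68 for Jdp2 (adjusted P 0.0424), 1.47 for Pycr1 (adjusted P 0.0161), 1.37 for Cdkn1a (adjusted P 0.0224), 1.13 for Sesn1 (adjusted P 0.0299), 0.94 for Aldh1l1 (adjusted P 0.0408) and 0.82 for Bcat1 (adjusted P 0.0305). A difference above 0 is not only a larger rise in LIF/serum. In 2i/LIF the means of Jdp2, Pycr1, Cdkn1a, Sesn1 and Bcat1 were lower in Dax1KO than in control cells. Bcat1 had 13610 in control and 9290 in Dax1KO cells in 2i/LIF, and 9278 and 11210 in LIF/serum. Sesn1 had 1374 and 988 in 2i/LIF, and 912 and 1439 in LIF/serum. Asns, Aldh1l1 and Bcat1 lie on chromosome 6, whose median difference was 0.05. Asns, Aldh1l1 and Bcat1 were lost without any 1 of the 8 libraries, Jdp2 and Sesn1 held without 1 of them, Cdkn1a without either of 2 and Pycr1 without any of 4. All but Pycr1 were also lost with no filter on low counts, and Jdp2 with the replicate number as a block.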

How the results depend on the processing

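Asns rose in LIF/serum and was higher in 2i/LIF than in LIF/serum in control cells under all 14 alternatives. The number of the 10 genes called in 2i/LIF was 1, and 0 to 1 with 1 library left out. In LIF/serum it was 2, and 1 with no filter on low counts, 1 with separate fits and 1 to 2 with 1 library left out, with Asns kept in each. For the difference between media it was 1, and 0 with no filter and 0 to 0 with 1 library left out. Between media it was 6 in control cells, 5 with RLE factors or at least 10 counts in every library, 4 with no filter, 2 with separate fits and 2 to 6 with 1 library left out, and 4 in Dax1KO cells, 2 to 4 with 1 library left out. Leaving out a library leaves 1 sample in its group, assumed to vary like the others. No filter tests more genes. The cause of the other losses was not tested.

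Changes near 0 turned sign. Shmt2 in 2i/LIF (-0.01) was 0.0008 with DESeq2 or RLE factors, 0.0069 with separate fits and -0.12 to 0.10 with 1 library left out. The difference between media of Atf4 (0.0039) was -0.0087 with DESeq2 or RLE factors, -0.0178 with at least 10 counts in every library and -0.21 to 0.20 with 1 library left out. Trib3 between media in control cells (-0.01) was 0.0025 with no filter and -0.27 to 0.28 with 1 library left out. With 1 library left out the ranges were -0.11 to 0.34 for Slc7a11 in 2i/LIF, -0.0222 to 0.54 for Trib3 and -0.28 to 0.0024 for Phgdh in LIF/serum, and -0.42 to 0.56 for Chac1, -0.56 to 0.0058 for Trib3 and -0.16 to 0.0128 for Psat1 in the difference. They were -0.0298 to 0.27 for Atf4 between media in control cells, and -0.0627 to 0.35 for Atf4 and -0.16 to 0.30 for Slc7a11 in Dax1KO cells. Less its chromosome's median, Asns was -0.16 in 2i/LIF and 0.80 in LIF/serum.

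The replicate block moved no call of the 10 genes: Ddit3 in 2i/LIF had an adjusted P of 0.0148, Asns in LIF/serum 0.00379, and Asns in the difference 0.0403. Of the 107 calls of other list genes that the naming rule covers it lost 6, and calls outside that rule are not included. In 2i/LIF it lost Mthfd2 (0.0622), and in LIF/serum Atf3 (0.0525) and Sel1l (0.054). It also lost Jdp2 in the difference (0.0527), and Hspa5 (0.0534) and Btg2 (0.0561) between media in Dax1KO cells. Deviations of same-numbered libraries correlated at 0.0796 in 2i/LIF and 0.108 in LIF/serum. No label says that same-numbered libraries belong together, and whether they share a batch was not tested. Over all genes, 656 were called in 2i/LIF, 121 with no filter and 1455 with DESeq2; in LIF/serum these were 3041, 1842 and 4006, and for the difference 596, 119 and 1510. Separate fits called 1743 in LIF/serum. With 1 library left out the counts ran from 38, without 2i/LIF Dax1KO replicate 2, to 673 in 2i/LIF, from 728, without LIF/serum Dax1KO replicate 2, to 2496 in LIF/serum, and from 36, without 2i/LIF Dax1KO replicate 2, to 344 for the difference. Between media they fell from 7641 to 5057 in control cells, without 2i/LIF control replicate 2, and from 5999 to 2986 in Dax1KO cells, without 2i/LIF Dax1KO replicate 2.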
